A study of Homo sapiens with 6 samples.

Results

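Of the 57773 rows of the gene table, 878 carried a name ending in AS and 1 digit, the form used for RNAs read from the strand opposite a named gene, and 430 of these had at least 10 reads in each of the 6 cultures. These 430 rows, called antisense RNAs here, were chosen by name and by that read minimum, which treats both groups alike. They hold 428 distinct names, since CEBPA-AS1 and DHRS4-AS1 each stood under 2 overlapping identifiers. The cultures were HepG2 cells, a human hepatocellular carcinoma cell line grown in serum and, by the study's methods, moved to serum-free medium for treatment, then exposed for 3 h to vehicle (3 cultures) or to human recombinant TGFB1 ligand, TGFβ, at 5 ng/mL (3 cultures), and their polyadenylated RNA was sequenced in pairs of reads. All 6 cultures came from this 1 cell line, so the groups speak for this line only. Nothing in the labels says whether cultures were set up independently, so P values measure the spread between these cultures.

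Antisense RNAs are transcribed from the strand opposite another gene. Many start close to the start of a protein-coding gene, on its opposite strand. This layout is called head to head here, whether or not the genes overlap. Others lie across the body of the gene. Most are long noncoding RNAs of low abundance, and a few are known to act on the expression of the gene they face. TGFβ binds a pair of receptor kinases that phosphorylate SMAD proteins, which then enter the nucleus and bind DNA with other factors. In liver cells the pathway is known for growth arrest and for loss of hepatocyte traits.

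Counts on genes ran from 60815385 to 100099136 reads per culture, and the antisense RNAs held between 0.354% and 0.371% of them. The library kit for mRNA does not record the strand of a read, and the strand setting of the counting is not given in the sources used here. A read over a base that an antisense RNA shares with another gene can therefore not be assigned by strand, and 392 of the 430 antisense RNAs overlapped at least 1 other gene while 38 overlapped none. All 10 genes listed as a check of the treatment labels, among them SMAD7 and SKIL, passed the test as rises with TGFβ (FDR under 0.05), where 3.11% of all tested genes rose. The list was chosen with earlier results of these data known. All 7 hepatocyte markers, such as ALB and APOA1, were at 1 CPM (counts scaled to library size) or more, with a summed level of 29943 to 32768 CPM in vehicle and 27915 to 31366 CPM in TGFβ cultures. None of them passed the edgeR test, and with the culture number as a block TTR (log2 fold change -0.25, FDR = 0.0495) and FGB (-0.22, FDR = 0.0331) were lower. Of 9 listed markers of other cell types in the table, CD68, COL1A1 and PDGFRB reached 1 CPM and were tested, the rest were too low to test and CD3E was at 0 in every culture. None of the 3 tested passed without the block, while COL1A1 (log2 fold change 0.57, FDR = 0.193) and PDGFRB (1.22, FDR = 0.0582) rose with it (FDR = 0.00806 and 7.25e-06). The summed level of the 9 was 49.3 to 52.8 CPM in vehicle and 62.6 to 70.6 CPM in TGFβ cultures, and the part of these shifts in the results on antisense RNAs was not tested. In bulk RNA, fewer cells with a transcript and less of it per cell cannot be told apart.

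TGFβ moved a small share of the antisense RNAs. With edgeR's quasi-likelihood test, 11 of 430 were higher and 5 lower at an FDR under 0.05, or 3.72%, beside 4.12% of the 22747 genes tested in the whole table. By direction, the whole table had 3.11% higher and 1.01% lower. At an unadjusted P under 0.05 there were 58 antisense RNAs, 28 higher and 30 lower, where 13.7% of all tested genes passed. The 3 TGFβ cultures lay wholly above the 3 vehicle cultures for 42 antisense RNAs (10.4% of all tested genes) and wholly below for 48 (8.23% of all tested genes), and the share of 20.9% in either direction stood beside 18.6% of all tested genes. The median log2 fold change was -0.04 over the antisense RNAs and -0.01 over all tested genes. Same-numbered cultures of the groups deviated together, and with the culture number as a block 24 antisense RNAs were higher and 17 lower, or 9.53%, beside 11.8% of all tested genes (8.08% higher and 3.75% lower). The share of antisense RNAs called was thus close to that of the table in both fits.

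The count of rises was 7 without vehicle culture 1, vehicle culture 3 or TGFβ culture 1, and otherwise 8 to 14. The count of falls was 0 without vehicle culture 2, vehicle culture 3, TGFβ culture 1 or TGFβ culture 2, 2 without TGFβ culture 3 and 4 without vehicle culture 1. The share of all tested genes called in these smaller fits is not given here. Whether the loss of falls was particular to antisense RNAs was not tested. For comparison, 138 long intergenic RNAs with LINC names under the same read minimum had 2 rises and 1 fall, or 2.17%. The 394 tested partner genes, those named before the AS suffix, had 19 rises and 11 falls, or 7.61%, and 21.8% were called with the block. Of all tested genes, 4.12% were called, and 11.8% with the block. The classes differed in level, with a median of 38.3 CPM (counts scaled to library size) for partners, 6.82 for all tested genes, 2.64 for antisense RNAs and 0.868 for LINC RNAs. Their shares were not compared at equal level. With 1 culture left out, partners had 9 to 22 rises and 7 to 11 falls, beside 19 and 11 with all cultures. In the limma test of ratios within pairs of genes, described below, calls over all 22036 pairs went from 317 to between 112 and 244.

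**Figure D1:**
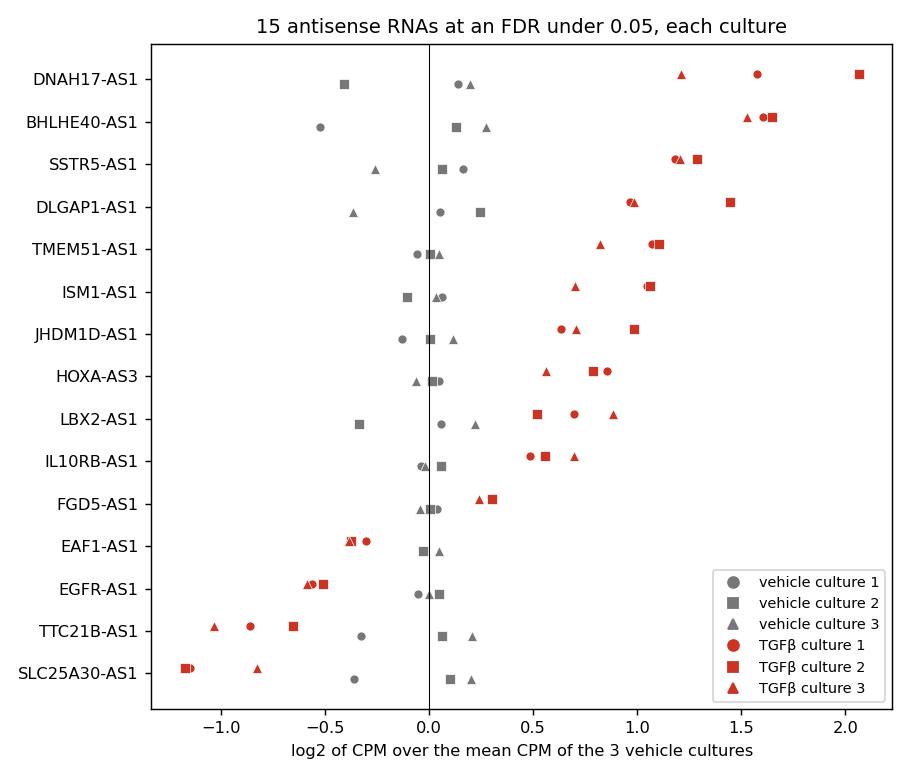
Each row is 1 of 15 of the 16 antisense RNAs at an FDR under 0.05 and each point 1 culture, with vehicle cultures in grey and TGFβ cultures in red, and the horizontal axis gives the log2 of the CPM over the mean CPM of the 3 vehicle cultures. The 3 TGFβ cultures lie to the right of the 3 vehicle cultures in the 11 upper rows and to the left in the 4 lower rows.

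Among antisense RNAs that start head to head with their partner, within 1000 bp, TGFβ raised 4 and lowered 1 of 142, or 3.52%, near the 4.12% of all tested genes. Of these 142, 91 overlapped their partner, and 61 shared no exon base with it. BHLHE40-AS1 (ENSG00000235831, chr3:4938493-5021646, minus strand) starts 845 bp inside BHLHE40, which encodes a transcriptional repressor of the basic helix-loop-helix family. It had 19, 28 and 23 reads in vehicle cultures 1, 2 and 3, and 91, 78 and 65 reads in the TGFβ cultures. The groups did not overlap, and the level rose from 0.309 ± 0.083 to 0.933 ± 0.039 CPM (SD, n = 3 each), a log2 fold change of 1.61 ± 0.26 (SE, FDR = 0.00741). BHLHE40 itself rose from 881, 1235 and 700 reads to 3350, 4725 and 3163 reads, a log2 fold change of 1.91 ± 0.20 (FDR = 0.000605).

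TMEM51-AS1 (ENSG00000175147, chr1:15442448-15478960, minus strand) starts 68 bp from the start of TMEM51, a transmembrane protein gene. In the GENCODE annotation 2.11% of its exon bases lie in exons of TMEM51, while in the deposited coordinates the rows share no base. It overlapped another gene in the table, whose values are not given here. The level of TMEM51-AS1 was 1.33, 1.39 and 1.43 CPM in vehicle cultures and 2.90, 2.97 and 2.44 CPM in TGFβ cultures. The antisense RNA was higher by a log2 fold change of 1.01 ± 0.17 (FDR = 0.00849) and TMEM51 by 1.00 ± 0.10 (FDR = 0.000609). For both genes of the pair the lowest TGFβ culture was above the highest vehicle culture.

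LBX2-AS1 (ENSG00000257702, chr2:74729722-74731805, plus strand) starts 721 bp inside LBX2, a homeobox gene, and 25.6% of its exon bases lie in exons of LBX2. It was one of the most abundant antisense RNAs, at 45.0, 34.2 and 50.5 CPM in vehicle and 70.0, 62.0 and 79.8 CPM in TGFβ cultures. The groups did not overlap, although cultures 2 were the lowest of both groups. The log2 fold change was 0.71 ± 0.14 (FDR = 0.0203) for LBX2-AS1 and 0.74 ± 0.15 (FDR = 0.0257) for LBX2, and the call on the antisense RNA was lost without vehicle culture 1 (FDR = 0.0549) or TGFβ culture 1 (FDR = 0.0542).

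IL10RB-AS1 (ENSG00000223799, chr21:34636178-34638565, minus strand) starts 98 bp from IL10RB, which encodes a receptor chain shared by several cytokines, and shares no exon base with it. It did overlap another gene in the table, whose values are not given here, and reads shared with that gene could not be assigned. The level of IL10RB-AS1 was 8.58, 9.15 and 8.67 CPM in vehicle cultures and 12.3, 13.0 and 14.3 CPM in TGFβ cultures. The groups stood well apart, and the log2 fold change was 0.58 ± 0.10 (FDR = 0.0114), with the call lost without vehicle culture 3 (FDR = 0.0651). IL10RB had a log2 fold change of 0.32 ± 0.09 (FDR = 0.0877, and 0.00526 with the block).

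SLC25A30-AS1 (ENSG00000251015, chr13:45992297-45994506, plus strand) was the head to head antisense RNA that fell, and it starts 293 bp inside SLC25A30, the gene of a mitochondrial carrier. Reads were 102, 132 and 105 in vehicle and 65, 53 and 61 in TGFβ cultures, or 1.48 ± 0.29 against 0.722 ± 0.0996 CPM (SD, n = 3 each). Every TGFβ culture was below every vehicle culture, with a log2 fold change of -1.04 ± 0.23 (FDR = 0.0335). SLC25A30 fell alongside, with a log2 fold change of -0.88 ± 0.09 (FDR = 0.000580). The call on the antisense RNA was lost without vehicle culture 2 (FDR = 0.138), vehicle culture 3 (FDR = 0.159), TGFβ culture 1 (FDR = 0.0975) or TGFβ culture 2 (FDR = 0.138).

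JHDM1D-AS1 (ENSG00000260231, chr7:139877061-139879440, plus strand) has no partner row under its own name. JHDM1D is an older symbol of KDM7A, the gene of a histone lysine demethylase, whose row starts 226 bp away on the other strand, a comparison chosen after the values were seen. JHDM1D-AS1 was at 8.18, 8.98 and 9.71 CPM in vehicle cultures and at 13.9, 17.7 and 14.6 CPM in TGFβ cultures. It overlapped no other gene in the table, and its log2 fold change was 0.79 ± 0.12 (FDR = 0.00607). KDM7A rose as well, from 2156, 3235 and 1864 reads to 5369, 5968 and 4052 reads, a log2 fold change of 0.98 ± 0.17 (FDR = 0.00989).

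The sequences around the starts of 4 head to head antisense RNAs that changed in the same direction as the facing gene are shown with that of DLGAP1-AS1, a strong rise in the body of a gene with almost no reads. Each runs 5′ to 3′ on the strand of the antisense RNA, from 250 bases before to 50 bases after the start in the table, read from GRCh37. Capitals mark CAGAC or its reverse complement GTCTG, the core SMAD motif. The windows are chr3:5021597-5021896 (minus) for BHLHE40-AS1, chr7:139876811-139877110 (plus) for JHDM1D-AS1, chr2:74729472-74729771 (plus) for LBX2-AS1, chr13:45992047-45992346 (plus) for SLC25A30-AS1 and chr18:3593480-3593779 (plus) for DLGAP1-AS1.
BHLHE40-AS1: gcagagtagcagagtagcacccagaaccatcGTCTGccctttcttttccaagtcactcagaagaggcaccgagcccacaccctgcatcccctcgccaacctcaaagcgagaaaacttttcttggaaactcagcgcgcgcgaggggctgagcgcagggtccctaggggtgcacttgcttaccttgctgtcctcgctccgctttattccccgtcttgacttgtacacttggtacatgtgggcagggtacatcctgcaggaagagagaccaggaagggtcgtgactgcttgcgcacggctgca
JHDM1D-AS1: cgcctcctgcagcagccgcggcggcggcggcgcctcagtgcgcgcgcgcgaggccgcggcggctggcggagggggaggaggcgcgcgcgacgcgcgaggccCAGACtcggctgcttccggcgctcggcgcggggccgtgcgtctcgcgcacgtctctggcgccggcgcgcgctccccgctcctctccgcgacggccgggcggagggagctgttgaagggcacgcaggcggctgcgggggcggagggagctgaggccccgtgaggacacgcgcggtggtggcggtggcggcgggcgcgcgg
LBX2-AS1: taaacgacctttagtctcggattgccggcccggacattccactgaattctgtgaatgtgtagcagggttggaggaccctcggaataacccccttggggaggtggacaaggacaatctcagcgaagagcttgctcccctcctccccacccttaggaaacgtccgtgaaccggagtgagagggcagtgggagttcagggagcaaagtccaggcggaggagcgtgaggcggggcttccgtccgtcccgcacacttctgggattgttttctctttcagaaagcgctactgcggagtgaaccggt
SLC25A30-AS1: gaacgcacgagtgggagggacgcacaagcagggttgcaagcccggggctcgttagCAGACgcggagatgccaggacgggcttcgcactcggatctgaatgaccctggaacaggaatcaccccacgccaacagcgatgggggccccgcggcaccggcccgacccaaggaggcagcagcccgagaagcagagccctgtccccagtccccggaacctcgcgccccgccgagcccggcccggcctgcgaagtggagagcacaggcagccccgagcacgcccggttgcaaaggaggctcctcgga
DLGAP1-AS1: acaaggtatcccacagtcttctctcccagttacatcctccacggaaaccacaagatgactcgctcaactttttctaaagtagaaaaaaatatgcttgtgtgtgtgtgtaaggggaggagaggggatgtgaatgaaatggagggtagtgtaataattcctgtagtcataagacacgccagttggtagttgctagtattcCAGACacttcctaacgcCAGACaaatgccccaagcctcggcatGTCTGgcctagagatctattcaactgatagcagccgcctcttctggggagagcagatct

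DLGAP1-AS1 held the core SMAD motif 3 times in this window, BHLHE40-AS1, JHDM1D-AS1 and SLC25A30-AS1 once each, and LBX2-AS1 at no position. Over all antisense RNAs with a known strand, 175 of 416 windows held the motif on either strand, or 42.1%, beside 43.8% of the 55520 windows of the whole table. The motif was present in 5 of 10 windows of antisense RNAs that rose and 3 of 5 of those that fell. The AP-1 motif (TGACTCA or TGAGTCA) was in 4.33% of antisense windows and 4.54% of all windows. Windows of head to head antisense RNAs had a median of 68.0% G and C, and those of antisense RNAs overlapping in another layout had 55.0%.

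Among antisense RNAs lying across their partner in other layouts, TGFβ raised 4 and lowered 4 of 264, or 3.03% beside 4.12% of all tested genes. SSTR5-AS1 (ENSG00000261713, chr16:1114093-1128707, minus strand) faces SSTR5, a somatostatin receptor gene. Its level was 1.63, 1.52 and 1.22 CPM in vehicle cultures and 3.30, 3.55 and 3.36 CPM in TGFβ cultures, a rise in every culture. The log2 fold change was 1.22 ± 0.17 (FDR = 0.00321), and SSTR5 rose by 0.75 ± 0.14 (FDR = 0.0167). ISM1-AS1 (ENSG00000226263, chr20:13218448-13220321, minus strand) lies inside ISM1, the gene of the secreted protein isthmin, and shares no exon base with it. It had 60, 50 and 41 reads in vehicle and 130, 109 and 77 reads in TGFβ cultures, with a log2 fold change of 0.95 ± 0.21 (FDR = 0.0348) beside 0.58 ± 0.11 (FDR = 0.0149) for ISM1. Its call held in only 1 of 6 fits with a culture left out, that without TGFβ culture 3 (FDR = 0.0254), and was lost without vehicle cultures 1, 2 and 3 (FDR = 0.0814, 0.161 and 0.130) and TGFβ cultures 1 and 2 (FDR = 0.111 and 0.152).

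DLGAP1-AS1 (ENSG00000177337, chr18:3593730-3598350, plus strand) rose while the gene around it was hardly read. DLGAP1 encodes a scaffold protein of the synapse and had 1, 3 and 0 reads in vehicle and 7, 4 and 3 in TGFβ cultures, too few to be tested. DLGAP1-AS1 had 641, 686 and 335 reads in vehicle and 1323, 1534 and 1008 reads in TGFβ cultures. That is 6.99 ± 1.44 against 15.5 ± 3.07 CPM (SD, n = 3 each), with groups that did not overlap and a log2 fold change of 1.15 ± 0.18 (FDR = 0.00603). DLGAP1-AS2, in the same gene, was at 3.82, 5.53 and 3.72 CPM in vehicle and 7.13, 11.8 and 5.995 CPM in TGFβ cultures. It missed the threshold without the block (log2 fold change 0.93 ± 0.25, FDR = 0.0867) and passed it with the block (FDR = 0.000255), and cultures 2 were the highest of both groups for both antisense RNAs.

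FGD5-AS1 (ENSG00000225733, chr3:14961854-14989931, minus strand) was likewise far above its partner. FGD5, known for its role in endothelial cells, had 23, 15 and 13 reads in vehicle and 22, 24 and 5 reads in TGFβ cultures, against 8891 to 13468 and 12800 to 17784 reads of FGD5-AS1. FGD5-AS1 was at 152.6, 149.2 and 144.4 CPM in vehicle and 183.5, 183.5 and 175.6 CPM in TGFβ cultures, a small shift with a narrow spread. Its log2 fold change was 0.28 ± 0.07 (FDR = 0.0438). The call was lost with scaling to total counts (FDR = 0.0780), without the filter on low counts (FDR = 0.0899) and without any 1 culture (FDR from 0.0644 without TGFβ culture 3 to 0.218 without vehicle culture 3).

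Of the 4 falls in this layout, 3 are described. TTC21B-AS1 (ENSG00000224490, chr2:166790367-166806401, plus strand) lies within TTC21B, which encodes a subunit of the intraflagellar transport machinery, and shares 31.3% of its exon bases with it. Its level was 3.73, 4.88 and 5.39 CPM in vehicle and 2.57, 2.97 and 2.28 CPM in TGFβ cultures. The log2 fold change was -0.84 ± 0.18 (FDR = 0.0316) for TTC21B-AS1 and -0.69 ± 0.10 (FDR = 0.00390) for TTC21B. EAF1-AS1 (ENSG00000249786, chr3:15477678-15493109, minus strand) also overlaps COLQ and METTL6 and was at 24.1, 24.0 and 25.3 CPM in vehicle and 19.9, 18.9 and 18.7 CPM in TGFβ cultures. It fell by a log2 fold change of -0.35 ± 0.08 (FDR = 0.0337), with -0.23 ± 0.07 (FDR = 0.135, and 0.0179 with the block) for EAF1, a cofactor of transcription elongation.

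EGFR-AS1 (ENSG00000224057, chr7:55247443-55256627, minus strand) lies within EGFR, the gene of a growth factor receptor kinase. It was at 7.11, 7.64 and 7.39 CPM in vehicle cultures and 5.00, 5.19 and 4.91 CPM in TGFβ cultures, so the groups were apart by far more than their spread. The log2 fold change was -0.55 ± 0.12 (FDR = 0.0264). EGFR was at 13.0, 13.4 and 16.3 CPM in vehicle and 13.5, 17.6 and 16.3 CPM in TGFβ cultures, with overlapping groups and a log2 fold change of 0.15 ± 0.13 (FDR = 0.735). Of the exon bases of EGFR-AS1, 6.53% lie in exons of EGFR, and the log2 ratio of EGFR-AS1 to EGFR differed between TGFβ and vehicle by -0.70 ± 0.17 (limma over all pairs, FDR = 0.115, and 0.0527 with the block).

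HNF4A-AS1 overlaps HNF4A, the gene of a nuclear receptor that maintains hepatocyte identity. HNF4A-AS1 was at 4.69, 3.23 and 5.23 CPM in vehicle and 3.09, 1.04 and 2.63 CPM in TGFβ cultures. Cultures 2 were the lowest of both groups, and the log2 fold change of -0.95 ± 0.34 passed the threshold with the block (FDR = 0.00357) and not without it (FDR = 0.218). HNF4A was level, at 373.2, 349.9 and 373.4 CPM in vehicle and 382.4, 330.7 and 396.8 CPM in TGFβ cultures.

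C1QTNF1-AS1 (log2 fold change -0.48 ± 0.14, FDR = 0.112) and NCBP2-AS1 (-0.46 ± 0.25, FDR = 0.515) also passed the threshold with the block alone (FDR = 0.0322 and 0.0309). C1QTNF1-AS1 was at 4.04, 4.49 and 3.8002 CPM in vehicle and 2.93, 2.85 and 3.05 CPM in TGFβ cultures, and NCBP2-AS1 at 3.795, 5.44 and 5.91 CPM against 2.58, 3.38 and 5.06 CPM, where the groups overlapped.

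All 16 antisense RNAs called without the block were also called with it, TTC21B-AS1, EAF1-AS1 and EGFR-AS1 among them (FDR = 0.00377, 0.00392 and 0.00373). The fits with a culture left out had no block. None of the calls on TTC21B-AS1, EAF1-AS1 and EGFR-AS1 held in all 6 of these fits. TTC21B-AS1 kept it only without vehicle culture 1 (FDR = 0.0225, otherwise 0.0550 to 0.161) and EGFR-AS1 only without vehicle culture 1 (FDR = 0.0492, otherwise 0.0529 to 0.122). EAF1-AS1 lost it in each of the 6 (FDR = 0.0539 to 0.171). Among the 11 rises, DNAH17-AS1, BHLHE40-AS1, SSTR5-AS1, DLGAP1-AS1, TMEM51-AS1 and JHDM1D-AS1 kept the call in all 6.

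DNAH17-AS1 (ENSG00000268470, chr17:76494911-76499138, strand unknown) had the largest rise of the 16. It lies within DNAH17, the gene of a dynein heavy chain of cilia and flagella, and also overlaps RP11-559N14.5, which had 34, 17 and 24 reads in vehicle and 106, 149 and 69 in TGFβ cultures (log2 fold change 1.99 ± 0.35, FDR = 0.00995). DNAH17-AS1 had 73, 47 and 53 reads in vehicle and 217, 253 and 127 reads in TGFβ cultures, a log2 fold change of 1.66 ± 0.27 (FDR = 0.00688). DNAH17 rose from 1170, 912 and 704 to 3269, 4128 and 2175 reads (log2 fold change 1.69 ± 0.18, FDR = 0.000799), and TGFβ culture 2 was the highest for both.

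**Figure D2:**
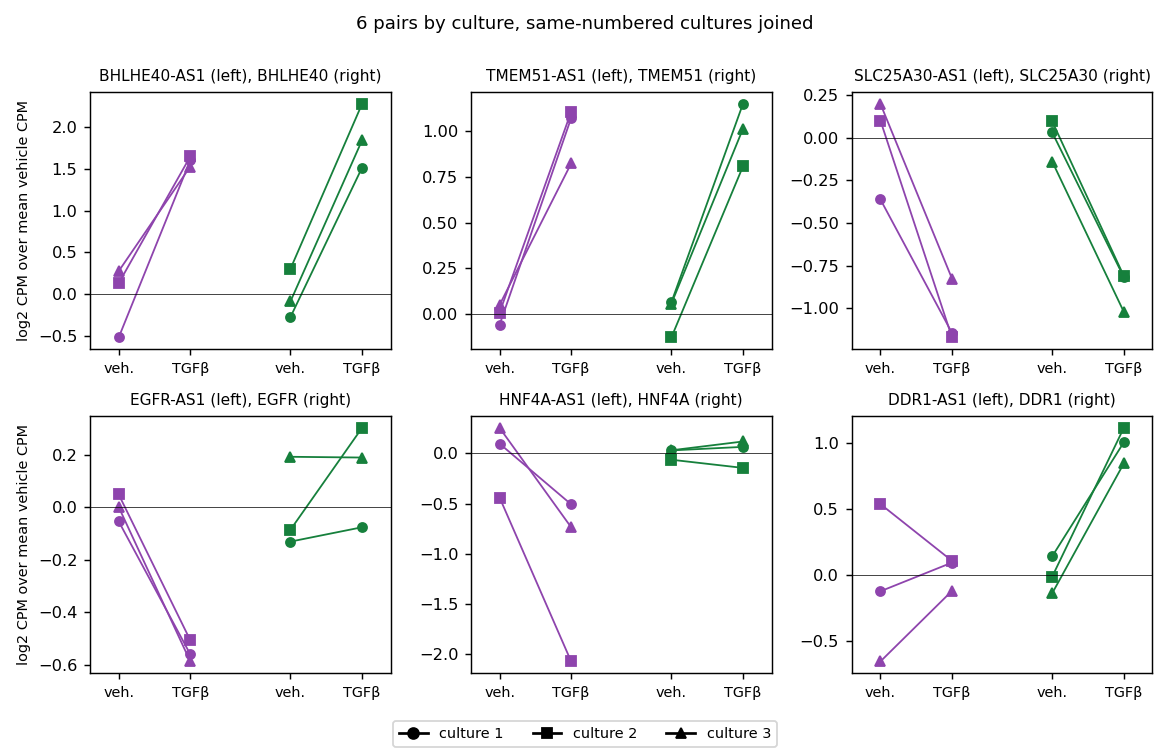
Each panel gives 1 pair, with the antisense RNA at left in purple and its partner at right in green, as the log2 of the CPM over the mean vehicle CPM, and lines join cultures of the same number (vertical axes differ between panels). The pairs of BHLHE40, TMEM51 and SLC25A30 moved together, while EGFR-AS1 and HNF4A-AS1 were lower beside a partner whose groups overlapped, and DDR1 rose beside an antisense RNA whose groups overlapped.

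Of the lists of antisense RNAs, the HOX cluster list had 3 of 18 names among the antisense RNAs described here. HOX genes encode homeodomain factors of body patterning. HOXA-AS3 (ENSG00000254369, chr7:27169596-27195542, plus strand) runs across HOXA3 to HOXA7 and was at 1.63, 1.59 and 1.51 CPM in vehicle and 2.86, 2.72 and 2.33 CPM in TGFβ cultures. It rose by a log2 fold change of 0.74 ± 0.17 (FDR = 0.0370), and its call was lost in 5 of 6 fits with a culture left out (FDR = 0.0850, 0.144 and 0.167 without vehicle cultures 1, 2 and 3, and 0.134 and 0.153 without TGFβ cultures 1 and 2). Of the overlapping genes, HOXA4 had a log2 fold change of 0.91 ± 0.17 (FDR = 0.0152) and HOXA5 of 1.26 ± 0.18 (FDR = 0.00309). HOXA3 (0.39 ± 0.12, FDR = 0.119) and HOXA6 (0.86 ± 0.24, FDR = 0.0914) passed with the block (FDR = 0.00866 and 0.00627), and HOXA7 had 42, 22 and 21 reads in vehicle and 25, 18 and 18 in TGFβ cultures (-0.57 ± 0.31, FDR = 0.506). Shared reads and a rise of HOXA-AS3 itself cannot be told apart by strand. HOXA-AS2 (log2 fold change 0.33 ± 0.10, FDR = 0.142) and HOXD-AS1 (-0.33 ± 0.09, FDR = 0.108) passed the threshold with the block (FDR = 0.0130 and 0.00407).

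A list of 33 names held antisense RNAs named for factors of TGFβ signaling, of epithelial to mesenchymal transition or of cell fate, a mixed class. Of these, 8 were among the antisense RNAs. Of the 8, 0 passed edgeR's test at an FDR under 0.05, with or without the block, and 0 had an unadjusted P under 0.05. With 4.12% of all tested genes called, a list of this size is too short to be told from the table. Their log2 fold changes ran from -0.21 (SOX9-AS1) to 0.27 (SMAD5-AS1), with a median of 0.05 beside -0.01 over all tested genes. ZEB1-AS1, facing the gene of a transcriptional repressor of epithelial genes, was at 5.18, 4.51 and 4.81 CPM in vehicle and 4.81, 5.37 and 4.34 CPM in TGFβ cultures, with groups that overlapped. SMAD1-AS1 was at 2.62, 2.79 and 2.70 CPM in vehicle and 2.77, 2.63 and 3.32 CPM in TGFβ cultures. SOX9, whose product is a factor of progenitor cells, fell by a log2 fold change of -0.48 (FDR = 0.0108) while SOX9-AS1 had 38, 38 and 34 reads in vehicle and 34, 30 and 38 reads in TGFβ cultures.

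The list named for liver factors and liver genes, which also holds SLC2A1-AS1, ASMTL-AS1 and BAIAP2-AS1, whose partners are not particular to liver, had 10 rows among the antisense RNAs. Of these 1 was lower and 0 were higher, where 1.01% of all tested genes were lower, and HNF4A-AS1 was added as a fall with the block, where 3.75% of all tested genes were lower. Their median log2 fold change was -0.18. F11-AS1, facing the gene of a coagulation factor, was at 5.45, 5.19 and 4.87 CPM in vehicle and 5.31, 4.51 and 4.43 CPM in TGFβ cultures. Both CEBPA-AS1 rows had small positive values (log2 fold changes 0.13 and 0.17, FDR = 0.816 and 0.760). Among 28 widely studied antisense RNAs, DLGAP1-AS1 was higher and EGFR-AS1 lower, or 7.14% beside 4.12% of all tested genes. The block added DLGAP1-AS2 and PXN-AS1 as rises, which made 14.3% called beside 11.8% of all tested genes. A list of this size is too short to be told from the table. PXN-AS1, facing the gene of the focal adhesion protein paxillin, was at 21.7, 20.6 and 22.3 CPM in vehicle and 26.1, 29.1 and 26.1 CPM in TGFβ cultures (log2 fold change 0.33 ± 0.08, FDR = 0.0575, and 0.00866 with the block). OIP5-AS1, an abundant cytoplasmic RNA, was at 166.3, 173.6 and 183.1 CPM in vehicle and 161.0, 152.3 and 156.3 CPM in TGFβ cultures (log2 fold change -0.15 ± 0.07, FDR = 0.367).

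**Figure D3:**
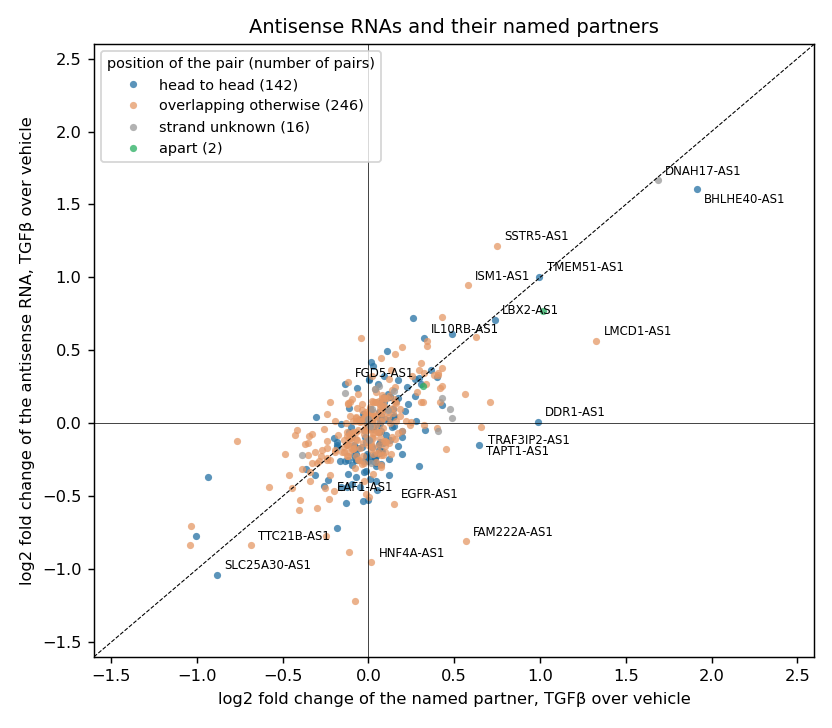
Each point is 1 of 406 pairs, with the log2 fold change of the partner on the horizontal axis and of the antisense RNA on the vertical axis, coloured by layout; the dashed line marks equal changes. Most pairs lie near 0, BHLHE40-AS1, DNAH17-AS1 and TMEM51-AS1 lie near the line, and DDR1-AS1 lies at 0.01 on the vertical axis against 0.99 on the horizontal.

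A partner row was found for 424 of the 430 antisense RNAs, and both were tested for 406. The fold changes of these pairs had the same sign in 281, or 69.2%, with Pearson's r = 0.669 and Spearman's rho = 0.570 across the 406 pairs, which share all 6 libraries. The r was 0.710 for the 142 head to head pairs, 0.595 for the 246 overlapping otherwise and 0.455 for the 94 with no shared exon base. By rho and by sign the head to head pairs (0.574 and 67.6%) were not above those overlapping otherwise (0.588 and 70.3%). The 94 pairs with no shared exon base were lower on both (0.436 and 62.8%). Over 15299 other genes and their nearest opposite-strand neighbour r was 0.188, with the same sign in 56.1%, and over the 2147 of these with starts within 1000 bp it was 0.318, with the same sign in 57.2%. The part of shared reads in these values was not tested.

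Calls pointed one way within a pair. Of the 8 rises with a tested partner, 6 had a partner that rose, and of the 5 falls, 2 had a partner that fell, while 0 antisense RNAs were called against the direction of a called partner. Read from the partners, 20 antisense RNAs faced one of 19 partners that rose, and 16 of these had a positive log2 fold change, with a median of 0.37 beside 0.61 for the partners. All 11 antisense RNAs facing a partner that fell had a negative value, with a median of -0.53 beside -0.77. Of all tested genes, 49.0% had a positive value. The same counts were not made over other neighbouring pairs, and with so few calls opposite calls would be rare in any case. The part of shared reads in these counts was not tested.

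Whether an antisense RNA and its partner changed by different amounts was tested on the log2 ratio of their CPM values. By limma, 0 of 406 pairs passed an FDR under 0.05, where 1.44% of the 22036 pairs fitted in the whole table did, and 21 pairs (5.17%) had an unadjusted P under 0.05 beside 11.8% of all pairs. The sets are unlike. Of 424 antisense RNAs with a partner row, 367 overlapped it and could share reads, while the other pairs were nearest opposite-strand neighbours at any distance. Median level was 2.64 CPM for antisense RNAs and 6.82 CPM for all tested genes. The shares were not compared at equal level or overlap. In simulated data this test recovered 39.9% of changed pairs. There, genes of any level were changed and drawn independently, without shared reads or paired cultures, so this share does not describe the antisense pairs. A pair that did not pass may still differ. With the block, 2 pairs had a lower ratio with TGFβ, beside 4.2% of all pairs called: HNF4A-AS1 to HNF4A (-1.08, FDR = 0.0169) and WAC-AS1 to WAC (-0.41, FDR = 0.0400). WAC encodes an adaptor of chromatin and autophagy. WAC-AS1 was at 12.9, 13.3 and 16.3 CPM in vehicle and 11.04, 11.02 and 14.7 CPM in TGFβ cultures, lower in each TGFβ culture than in the vehicle culture of its number. Without TGFβ culture 3 the count was also 2.

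The 6 largest differences of the ratio were all toward a lower share of the antisense RNA. FAM222A-AS1 to FAM222A had a difference of -1.32 ± 0.34 (SE, FDR = 0.144), with the antisense RNA at 0.963, 0.821 and 0.633 CPM in vehicle and 0.351, 0.497 and 0.549 CPM in TGFβ cultures. PVRL3-AS1 to PVRL3, a cell adhesion gene, had -1.02 ± 0.33 (FDR = 0.249). DDR1, the gene of a collagen receptor kinase, rose by 0.99 ± 0.10 on the log2 scale (FDR = 0.000424), from 59.7, 53.7 and 49.2 to 108.6, 117.2 and 97.2 CPM. DDR1-AS1, head to head with it and with no shared exon base, was at 0.328, 0.519 and 0.227 CPM in vehicle and 0.382, 0.385 and 0.329 CPM in TGFβ cultures, and the ratio differed by -0.89 ± 0.27 (FDR = 0.223).

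For TAPT1-AS1 to TAPT1 the difference was -0.85 ± 0.31 (FDR = 0.321) and for LMCD1-AS1 to LMCD1, a LIM domain gene, -0.83 ± 0.40 (FDR = 0.496), and in both the ratios of the groups overlapped. TAPT1 rose by 0.64 on the log2 scale (FDR = 0.0101) and LMCD1 by 1.33 (FDR = 7.06e-05). For FAM222A-AS1, HNF4A-AS1, PVRL3-AS1 and DDR1-AS1 every TGFβ culture had a lower ratio than every vehicle culture. An exact permutation test of 3 against 3 that ignores the culture numbers gives P = 0.1 there, the lowest such a test allows. These pairs were picked for large differences in the same cultures, so this P adds no support. Chosen after the values were seen, TRAF3IP2-AS1 was at 5.83, 6.06 and 5.73 CPM in vehicle and 5.82, 5.70 and 5.76 CPM in TGFβ cultures, where TRAF3IP2, an adaptor of cytokine signaling, rose by 0.66 on the log2 scale (FDR = 0.0125).

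**Figure D4:**
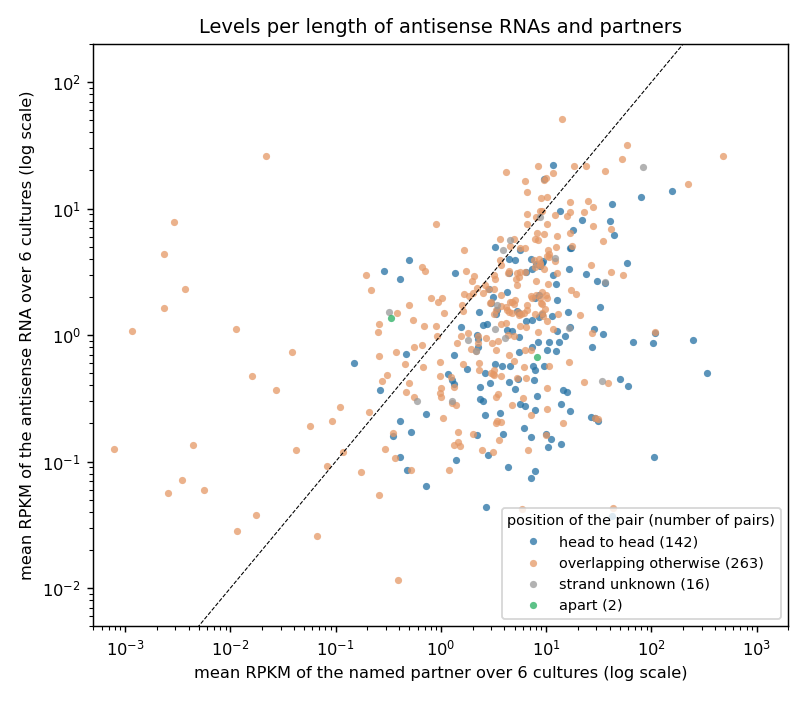
Each point is 1 antisense RNA with a partner above 0, by mean RPKM over 6 cultures (log scales) of the partner on the horizontal and of the antisense RNA on the vertical axis, coloured by layout; the dashed line marks equal levels. Head to head antisense RNAs (blue) mostly lie below the line, with a median of 15.0% of the partner, and a group of antisense RNAs at upper left, FGD5-AS1 among them, lies far above partners with almost no reads.

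Per length, antisense RNAs were mostly below their partners. The median of the mean RPKM, reads scaled to gene length and library size, was 1.20 over the 430, with a range of 0.0116 to 51.04, and 239 were at 1 RPKM or more. The 10 with the most reads held 36.9% of all reads on antisense RNAs. The 142 head to head antisense RNAs had a median of 15.0% of the RPKM of their partner, and 10 of them were above it. The 264 overlapping otherwise had a median of 43.8%, and 78 were above it.

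The 6 highest levels per length were those of FAM211A-AS1 (51.04 RPKM), PRMT5-AS1 (32.1 RPKM), FGD5-AS1 (26.2 RPKM), A2M-AS1 (26.1 RPKM), EZR-AS1 (24.8 RPKM) and LBX2-AS1 (22.2 RPKM). FAM211A-AS1 was at 220.7, 263.9 and 261.7 CPM in vehicle and 194.7, 213.2 and 255.8 CPM in TGFβ cultures, with overlapping groups. A2M-AS1, facing the gene of the liver protease inhibitor alpha-macroglobulin, was at 106.7, 47.1 and 44.2 CPM in vehicle and 107.0, 63.8 and 51.7 CPM in TGFβ cultures. Culture 1 was the highest in both groups, and the log2 fold change was 0.17 ± 0.35 (FDR = 0.902), with -0.20 without TGFβ culture 1. PRMT5-AS1 and EZR-AS1 had log2 fold changes of -0.07 and -0.06.

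Just inside the read minimum, WDR52-AS1 had 12, 10 and 12 reads in vehicle and 15, 16 and 10 in TGFβ cultures, RBMS3-AS2 had 10, 20 and 11 against 22, 17 and 13, and ATP1B3-AS1 had 18, 16 and 14 against 20, 15 and 10. Just outside it, MNX1-AS1 had 29, 27 and 21 reads against 31, 9 and 17, COL18A1-AS1 had 10, 10 and 9 against 19, 19 and 13, and AQP4-AS1 had 18, 13 and 10 against 15, 9 and 10. Of the 448 antisense rows outside the minimum, 193 had 0 reads in every culture, and 32 passed the low-count filter of the test, of which 0 passed the edgeR test at an FDR under 0.05 or at an unadjusted P under 0.05.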

How the data were processed

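The authors sequenced mRNA libraries of 6 HepG2 cultures and aligned the reads to hg19; their processing notes name bcl2fastq, TopHat2 2.0.6 and HTSeq. They deposited raw counts per gene, as whole numbers without normalization, and RPKM values per gene, which the authors scaled by coding length and library total. Not given in the sources used here are the strand setting, the handling of reads on overlapping genes and the annotation release. Groups and culture numbers came from the labels. The antisense RNAs, lists and tests were chosen with earlier results of these data known.

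The deposited counts of all 57773 rows were fitted with edgeR 4.0.16 (R 4.3.3; TMM, filterByExpr, robust quasi-likelihood F test, no block), with Benjamini-Hochberg adjustment (FDR) over the 22747 genes tested and a threshold of 0.05. CPM values are TMM-scaled. The SE is the one implied by the F statistic. Ratios of antisense RNA to partner were tested with limma 3.58.1 (trend, robust) on log2 CPM with a prior count of 2, over 22036 pairs. DESeq2 1.42.0 was an alternative. Steps were tested on simulated data, where 9.79% of the edgeR calls and 6.21% of the limma pair calls at an FDR under 0.05 were false. Strand and exons were taken by identifier from GENCODE on GRCh37, which gave a strand for 416 of 430 antisense RNAs, and start distances and overlaps from the deposited coordinates. RPKM was used only for levels per length. Same-numbered cultures deviated together from their group means (correlations across genes 0.366, 0.227 and 0.316, and at most 0.0101 between different numbers), which pairs the cultures by number, and blocked values are printed beside named calls that they change. Per the labels, same-numbered cultures shared a lane except cultures 3. The cultures of a group differed beyond sampling noise (chi-square of at least 21.4 per gene) and were kept separate.

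Named antisense RNAs were, by rule, the 12 largest rises and 8 largest falls called with or without the block, those called without it first, the 6 highest by RPKM, the 3 nearest the read minimum on each side, list members and the 6 largest pair differences; others are said to be chosen after their values were seen. 1 named antisense RNA is not reported here.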

Additional observations from a re-analysis of the deposited data

How the results depend on the processing

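With the culture number as a replicate block, 24 antisense RNAs were higher and 17 lower, partner genes had 53 rises and 33 falls, LINC RNAs 7 and 4, and 2 ratios of antisense RNA to partner were lower. DESeq2 gave 10 falls of antisense RNAs, 29 rises of partner genes and 2 falls of LINC RNAs, and without the low-count filter LINC RNAs also had 2 falls. Among the 38 antisense RNAs that overlap no gene, 1 was higher and 0 lower. Leaving out 1 culture at a time gave 7 to 14 rises and 0 to 4 falls of antisense RNAs, 9 to 22 rises and 7 to 11 falls of partner genes, 0 to 1 falls of LINC RNAs and 0 to 2 lower ratios. The other counts were within 1.5 times those reported under DESeq2 size factors, total counts, limma-voom, stricter or mean read minimums, a prior count of 0.5 and pairs that do not overlap. The cause of these shifts was not tested.

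Values near 0 changed sign, none of them past the threshold. ZEB1-AS1 had log2 fold changes of -0.000534 with DESeq2 size factors, -0.039 with total counts, -0.022 without the filter and -0.000695 with limma-voom. With total counts PROX1-AS1 had -0.028, TMPO-AS1 -0.019, TTN-AS1 -0.0051 and ATP6V0E2-AS1 -0.024, and without the filter PROX1-AS1 had -0.00827 and ATP6V0E2-AS1 -0.00677. With 1 culture left out, the range was -0.20 to 0.69 for A2M-AS1, -0.024 to 0.35 for WDR52-AS1, -0.049 to 0.52 for RBMS3-AS2, -0.0071 to 0.16 for SMAD1-AS1, -0.090 to 0.066 for ZEB1-AS1, -0.087 to 0.11 for PROX1-AS1, -0.061 to 0.10 for TMPO-AS1, -0.098 to 0.015 for MAPKAPK5-AS1, -0.041 to 0.13 for TTN-AS1, -0.088 to 0.033 for TP73-AS1, -0.042 to 0.095 for VPS9D1-AS1, -0.15 to 0.24 for CBR3-AS1, -0.14 to 0.19 for ATP6V0E2-AS1 and -0.44 to 0.070 for ZNRF3-AS1.

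The groups held 3 cultures each and the lowest count allowed for an antisense RNA was 10 reads in a culture, and overlapping reads could not be assigned by strand.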
